A study of Homo sapiens with 12 samples.

Results

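The comparison described here is that of IMR5 cells carrying siRNA number 10 against XPO1 with IMR5 cells carrying control siRNA, 3 libraries each, taken as the 6 columns of the knockdown table that bear these names, out of 12 samples in the series. IMR5 is an established human neuroblastoma cell line in which the oncogene MYCN is amplified, and both groups are this line, grown in the same medium with no other treatment named. Control and XPO1 siRNA were given by nucleofection, and RNA was taken 72 h later. A single XPO1 siRNA was analysed here, so what the fall in XPO1 brought about and what the siRNA did to other transcripts by its sequence cannot be told apart. The labels do not say whether the replicates were separate cultures, and p-values therefore measure no more than the scatter of these libraries, possibly a technical one. The remaining 6 samples received the drug selinexor or its solvent and stand in a separately normalised table that was not used.

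XPO1 encodes exportin 1, the receptor that carries proteins with a leucine-rich nuclear export signal out of the nucleus together with the GTPase Ran. It also carries ribosomal subunits and, through adaptors, several classes of RNA. Its known cargoes include tumour suppressor and cell cycle regulatory proteins, among them p53, which is why the receptor is a drug target in cancer. Neuroblastoma arises from the sympathoadrenal lineage of the neural crest, and its adrenergic form is marked by the transcription factors HAND2, GATA3 and ISL1.

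Values are the authors' normalised read counts, given as library values or as mean ± SD (n = 3). Changes are log2 fold changes of XPO1 siRNA over control siRNA computed from log2(value + 1), so the change of a low gene is understated, and in brackets after a gene name the number is this log2 fold change. A gene was called when limma gave a Benjamini-Hochberg adjusted p under 0.05 over all genes tested, those with a mean of at least 10. Estimated depth was 40.6 to 54.0 M reads per control siRNA library and 33.5 to 55.8 M reads per XPO1 siRNA library. Log2 values correlated at 0.992 to 0.995 within groups and at 0.98 to 0.983 between them, and no library stood apart. Of 17616 genes tested, 25.9% were called higher and 28.6% lower (54.5% together), so most lists below are to be read against a background in which a change of some size was common. Called changes with an absolute log2 fold change of 1 or more were rarer, with 3.3% of tested genes higher and 1.53% lower. In 60.4% of tested genes every library of one group lay above every library of the other. Of all calls 47.5% were higher, against 62.4% when libraries were rescaled to equal totals of the deposited values, a scaling that shifted the median of all tested genes by 0.0893. Across all tested genes the middle 50% of log2 fold changes lay between -0.24 and 0.28.

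The targeted transcript was lower in every library. XPO1 (chr2:61704984-61765762, hg19, minus strand) stood at 18568, 18950.1 and 18908 in the control group and at 4259.9, 4377 and 4397 in the XPO1 siRNA group, lower by a factor of 4.33 (log2 fold change -2.11, SE 0.0311, limma adjusted p = 2.91e-14). The gene RP11-355B11.2 overlaps XPO1 on the other strand (log2 fold change -1.41), and whether the authors' counting used strand is not given in the sources used here. CDKN1A (chr6:36644305-36655117), which encodes the cyclin-dependent kinase inhibitor p21, moved the other way and further. Its control libraries read 721, 671 and 673 and its XPO1 siRNA libraries 16062, 15137 and 15456, 22.6 times higher (log2 fold change 4.50, SE 0.0407, limma adjusted p = 9.47e-17). EPHA5 (chr4:66185281-66536214), a receptor tyrosine kinase of the ephrin system, read 105, 96.4 and 108 against 28.3, 29.1 and 24.8 (log2 fold change -1.88, SE 0.167, limma adjusted p = 6.20e-07). The groups were separated for all 3 genes. MYCN (chr2:16080686-16087130) was modestly higher, at 28400.5, 27847 and 27884 in control and 35368, 33418 and 34528 in XPO1 siRNA libraries (log2 fold change 0.30, SE 0.0328). The antisense gene MYCNOS overlaps MYCN and its values were 809 ± 22.0 and 724 ± 66.4.

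**Figure D1:**
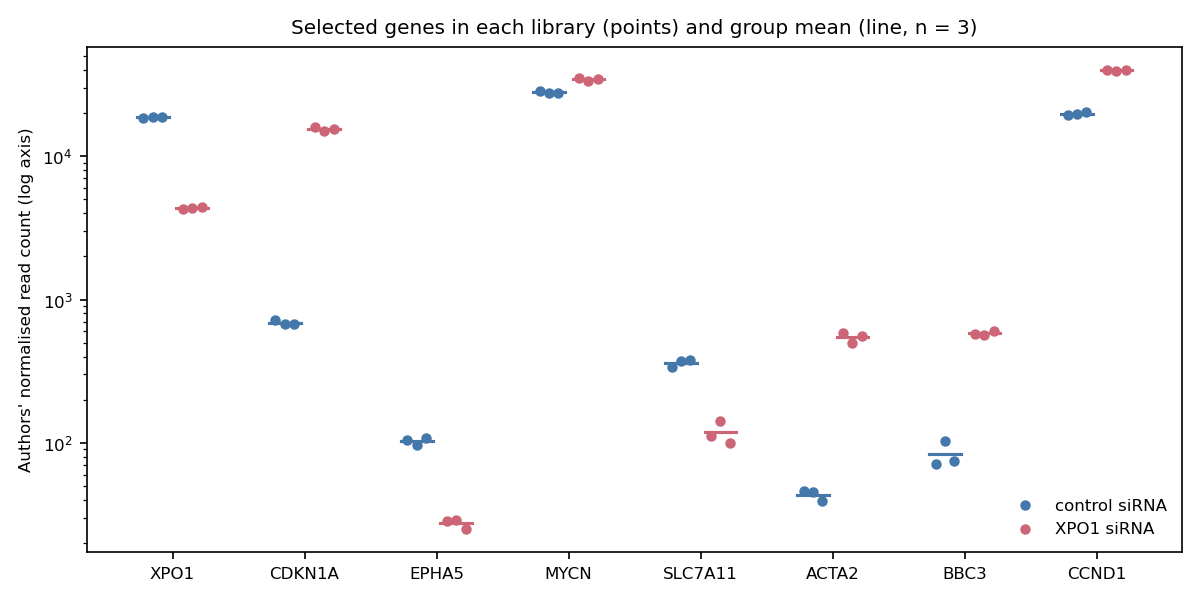
Normalised read counts (log axis) of 8 genes in the 3 control siRNA and 3 XPO1 siRNA libraries, each point a library and each line a group mean. The groups do not overlap for any of the 8, with XPO1, EPHA5 and SLC7A11 lower and CDKN1A, MYCN, ACTA2, BBC3 and CCND1 higher after XPO1 siRNA.

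The largest rises included p53 targets, amino acid and monocarboxylate transporters and epithelial genes. The 15 largest, counted among genes that averaged 100 or more in their higher group with separated libraries, contained BBC3, PLK2, EDA2R and DRAM1 beside CDKN1A, the transporter genes SLC16A6 and SLC43A2, and PVRL4, MUC19, ZNF750 and EPPK1 of epithelia. The others were CYP4F3, FRMPD2, INPP5D and ACTA2. CYP4F3, a fatty acid omega-hydroxylase with close paralogs that may share its reads, was listed at 0, 1.06 and 0 in control and at 244, 208 and 194 in XPO1 siRNA libraries. PVRL4, the cell adhesion molecule nectin 4 of epithelia, went from 4.21, 5.31 and 5.64 to 349.7, 333 and 364. INPP5D, an inositol 5-phosphatase best known from blood cells, read 26.3, 10.6 and 13.7 against 568, 549 and 556 (log2 fold change 5.06, SE 0.236). All control libraries of these 3 genes lay near the floor of detection, and none came near an XPO1 siRNA library. SLC16A6, a monocarboxylate transporter family member, stood at 139, 166 and 182 against 1336, 1286 and 1359 (log2 fold change 3.03). It overlaps ARSG on the other strand, which had a log2 fold change of 0.92. SLC43A2, a transporter of large neutral amino acids, read 307, 284 and 338 against 2213, 2123 and 2161 (log2 fold change 2.80, SE 0.0628). The remaining genes of this group rose by between 2.58 for the autophagy gene DRAM1 and 5.38 for FRMPD2.

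The largest falls, after XPO1 itself, were dominated by histone genes: HIST3H2BA, HIST1H2AD, HIST2H3D, HIST1H3J, HIST1H2AB, HIST1H3H, HIST2H2AB and HIST3H2A. The others were EPHA5, IFI44L, SHISA3, SLC7A11, BHLHE40 and PIR. SLC7A11, the cystine importer that feeds glutathione synthesis, read 340.1, 373 and 376 in control and 112, 143 and 100.0 in XPO1 siRNA libraries (log2 fold change -1.63, SE 0.122). PIR, the iron-binding nuclear protein pirin, went from 726, 739 and 658 to 205, 228 and 264. BHLHE40, a transcriptional repressor of the circadian and hypoxia systems, read 419, 606 and 409 against 162, 130.3 and 169. In each of these genes the lowest control library lay above the highest XPO1 siRNA library. SHISA3, which encodes an endoplasmic reticulum protein that attenuates WNT and FGF signalling, stood at 229.5, 215 and 240.2 against 60.2, 87.4 and 59.5. IFI44L, an interferon-stimulated gene, had values of 171, 214 and 210.3 against 54.0, 56.1 and 50 (log2 fold change -1.87, SE 0.134).

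**Figure D2:**
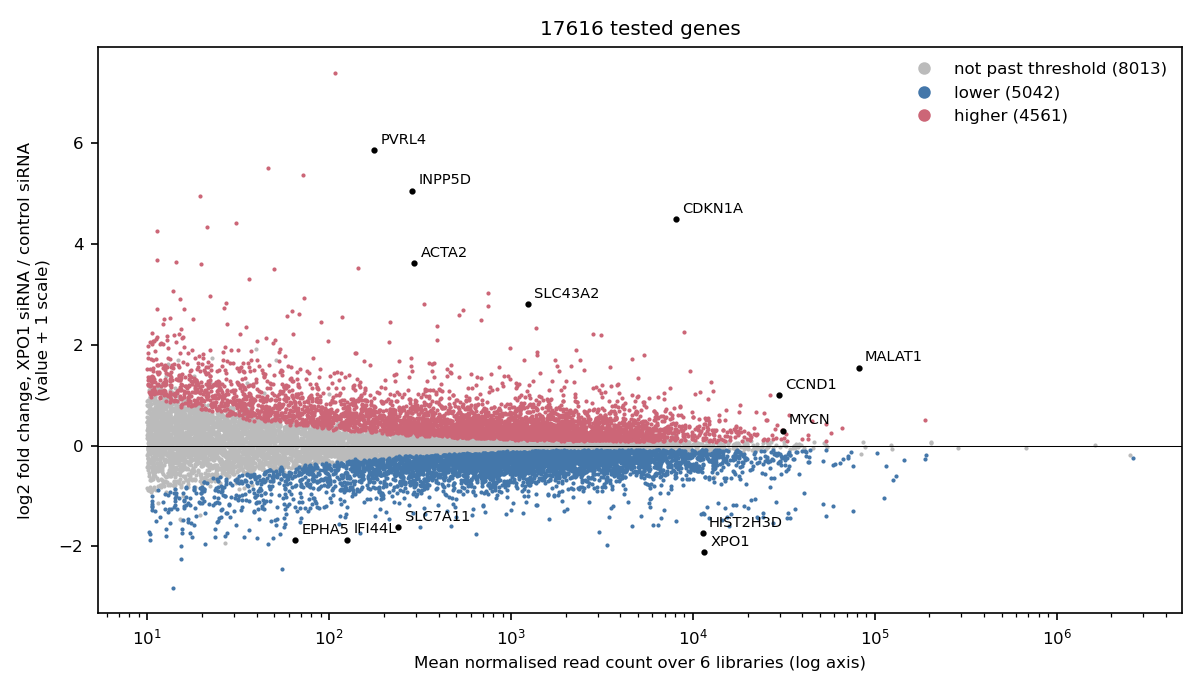
Mean normalised read count over the 6 libraries (log axis) against the log2 fold change for the 17616 tested genes, coloured by call, with named genes in black. CDKN1A at a log2 fold change of 4.50 stands above all other genes of similar abundance, XPO1 at -2.11 lies at the lower edge, and most called genes lie within 1 of zero.

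Genes of nuclear transport were mostly lower, including receptors other than XPO1. Of 7 exportin genes, 6 were called lower, XPO1 among them, and 1, XPO6, higher. The tRNA exportin XPOT stood at 9216, 9062 and 8878 against 6489.6, 6445 and 6442 (-0.49), and CSE1L, which returns importin alpha to the cytoplasm, at 14979, 15199.9 and 14771 against 11164, 10643 and 10954 (-0.46). XPO6, which exports actin, went from 5387 ± 197 to 6486 ± 190.1 (0.27). Among importins 11 of 18 fell and 2 rose, with a median log2 fold change of -0.18 (with equal totals 8 fell and 5 rose, median -0.09). The importin alpha genes KPNA2 (-0.64), KPNA4 (-0.57) and KPNA3 (-0.46) and the importin beta family genes IPO5 (-0.52) and IPO11 (-0.45) fell, while KPNA5 rose by 0.40 and IPO13 had a log2 fold change of 0.16; the call of IPO13 was lost without replicate 2 of the control siRNA group or replicate 1 of the XPO1 siRNA group (limma adjusted p = 0.062 to 0.0643) and with no intensity trend (0.0629). In the Ran cycle 9 of 17 genes fell. The Ran-binding protein gene RANBP1 read 8908, 8564 and 8505 against 5915, 5749 and 5839 (-0.57), and RCC1, the nucleotide exchange factor that charges Ran with GTP, 3254, 3122 and 3322 against 2407, 2266 and 2232 (-0.49). Called higher were 4: the mRNA export receptor gene NXF1 (0.34), the pore filament gene RANBP2 (0.33), the snRNA export adaptor gene PHAX (0.29) and RANBP9 (0.21), the last 2 named after their values were seen. The partner of NXF1, NXT1 (-0.57), fell. Nucleoporins fell in 23 of 30 cases with a median of -0.26 (with equal totals 18 fell and 3 rose). The nuclear basket gene TPR rose (0.35), from 14509, 15936 and 17513 to 20435, 20723 and 19934. The second nucleoporin called higher was NUP214 (0.13); the call of NUP214 was lost without replicate 1 or 2 of the control siRNA group or replicate 2 or 3 of the XPO1 siRNA group (limma adjusted p = 0.0653 to 0.179) and with no intensity trend (0.134).

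Most tested targets of p53 rose. They are genes that the transcription factor p53 is known to activate after stress, and the lists used here sort them by what their products do. Among genes of cell cycle arrest and growth control, 11 of 16 were called higher and 0 lower, with a median log2 fold change of 1.01 where all tested genes had 0.00243. After CDKN1A came PLK2, a polo-like kinase of the stress response, at 213, 178 and 184 against 1308, 1246 and 1349 (2.76). PHLDA3, an inhibitor of AKT signalling, read 478, 393 and 496 against 2329, 2225 and 2313 (2.33). The sestrin gene SESN1, which restrains mTORC1, read 386, 426 and 413 against 1602, 1570.2 and 1501 (1.93). No library of either group overlapped the other for these genes. TP53INP1 (2.19) and PLK3 (1.59) also rose.

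In the list of p53 feedback regulators, which also holds other p53 targets such as AEN and TRIAP1, 8 of 11 genes rose, with a median of 0.73. MDM2, the ubiquitin ligase that degrades p53, stood at 7488, 7433 and 7317 in control and 17719, 17804 and 17838 in XPO1 siRNA libraries (1.26, SE 0.0299). The phosphatase gene PPM1D (1.23), the RNA-binding protein gene ZMAT3 (1.57), the exonuclease gene AEN (0.95), TRIAP1 (0.73), CCNG1 (0.37) and CCNG2 (0.38) rose as well. RPS27L, a ribosomal protein paralog, went from 906, 1118 and 984 to 4939, 4545 and 4506 (2.22). The 3 that did not pass were all close to zero: MDM4 (0.03), which encodes the relative of MDM2 that binds p53, RFWD2 (0.04) and RCHY1 (0.01). MDM4 and RFWD2 passed when libraries were rescaled to equal totals (limma adjusted p = 0.0195 and 0.00874).

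In the list of repair, metabolism and redox targets 12 of 18 rose and 3 fell. SPATA18, a gene of mitochondrial quality control, read 121, 125 and 131 against 704, 652 and 613 (2.37). FDXR, a mitochondrial reductase, read 617, 617 and 613 against 2147, 2099 and 2212 (1.80), and RRM2B, the p53-inducible ribonucleotide reductase subunit, 942, 1045 and 903 against 2760.1, 2710.2 and 2635 (1.49). The glutaminase gene GLS2 (1.52), the nucleotide excision repair gene DDB2 (0.99) and the fucosidase gene FUCA1 (1.27) rose from low control values. The falls were those of the proline catabolism gene ALDH4A1 (-0.37), the translesion polymerase gene POLK (-0.37) and, named after its value was seen, SCO2 (-0.23).

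Apoptotic targets rose in 8 of 10 cases with a median of 1.24. BBC3, which encodes the BH3-only protein PUMA, stood at 71.6, 103 and 74.1 against 575, 565 and 601 (2.81, SE 0.124). BAX, the pore-forming effector, read 1235, 1169 and 1236 against 2849, 2695 and 2609.7 (1.16). Some genes of the TNF receptor family rose too. TNFRSF10B, which encodes the TRAIL receptor DR5, went from 4958, 5079 and 5190.0 to 14482, 14159.7 and 14014 (1.49). EDA2R went from 156, 132 and 147 to 991, 928 and 912 (2.7), and FAS from 90.6, 75.4 and 79.0 to 201, 201 and 209.5 (1.31). FAS and ACTA2 overlap on opposite strands, and reads from one and the other cannot be told apart without strand. PIDD (1.45), STEAP3 (0.86) and BLOC1S2 (0.60) rose. PMAIP1, which encodes the BH3-only protein NOXA, did not pass and read 2182, 2328 and 2181 against 2116, 2091 and 2124 (-0.08, limma adjusted p = 0.113). TNFRSF1A did not pass either (0.11), except with equal totals (limma adjusted p = 0.0174).

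A promoter with a p53 element is shown for AEN, a p53 target that rose (log2 fold change 0.95, chr15:88621280-88621339, plus strand, RefSeq GRCh38.p14), with the element, 2 adjoining half-sites of 10 bases, in capitals.
AEN: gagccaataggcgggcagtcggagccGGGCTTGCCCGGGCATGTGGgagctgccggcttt
Elements of this kind, with the core bases exact and at most 2 mismatches elsewhere, are in 41 of 27305 RefSeq promoters (0.2%) in the searched window, which leaves out introns and distant sites. Of the matched p53 targets 1 of 11 genes of the feedback list, AEN, and 1 of 14 repair, metabolism and redox genes, GLS2, held one. None of the 12 arrest and 9 apoptosis genes did. Matched promoters covered 100% of the tested feedback genes and 90% of the apoptosis genes. For the arrest and repair lists they covered 75% and 77.8%, too few for their shares to be used. The element of GLS2, and that of the promoter of ACTA2, lay just downstream of the start.

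**Figure D3:**
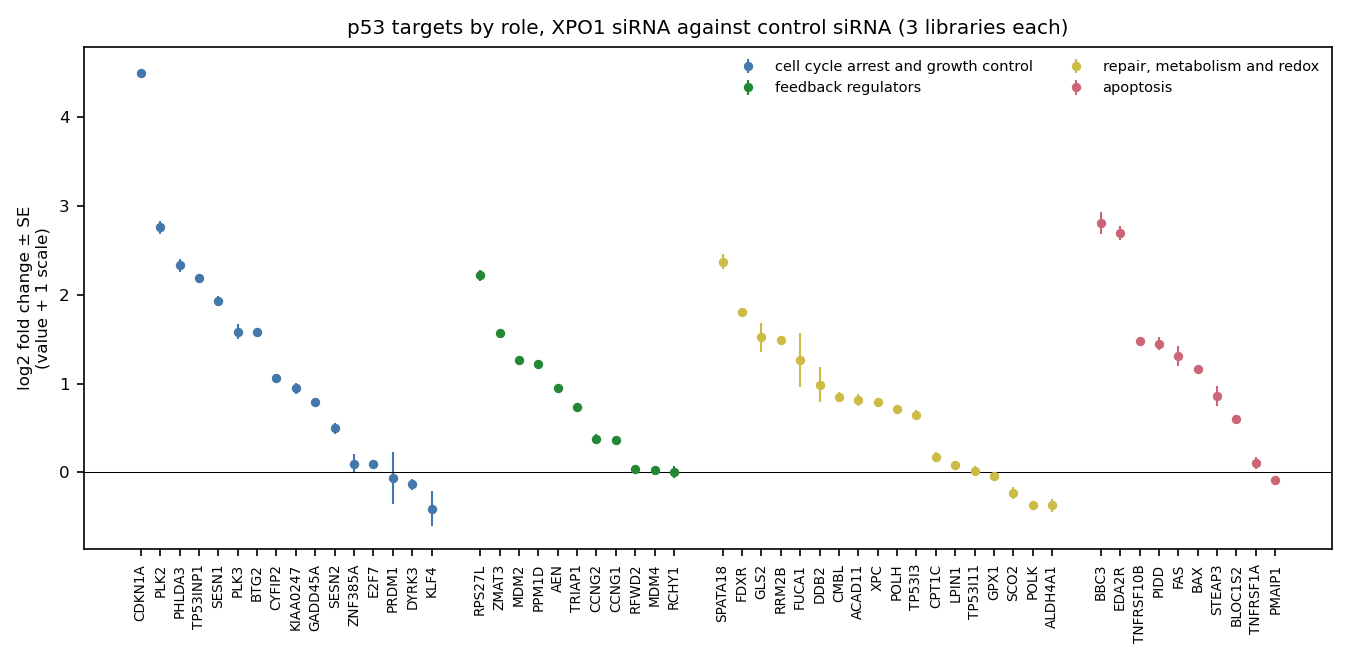
Log2 fold change with its standard error (bars) for the tested p53 targets, sorted within 4 roles. Each role holds genes near zero beside genes above 2, and CDKN1A at 4.50 is the highest of the 55 points.

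Members of the BCL2 family that are not in those lists moved less. Of 14 family members 6 rose and 3 fell (median 0.06; with equal totals 9 rose and 2 fell). After BBC3 and BAX the rises were those of the BH3-only gene BMF (0.79) and the survival genes BCL2L2 (0.29), BCL2L1 (0.25) and BCL2 (0.10). The falls were those of the BH3-only gene HRK (-0.57), the effector gene BAK1 (-0.37) and BCL2L13 (-0.11). BCL2L1, BCL2 and BCL2L13 were named after their values were seen. In the list of caspases and inhibitors of apoptosis 6 of 16 fell and 2 rose, but with equal totals 4 fell and 5 rose. The largest fall was that of BIRC5 (survivin, also a mitotic gene), which read 18375, 18857 and 18542 against 11690.1, 11118 and 11202 (-0.71). The cytochrome c gene CYCS (-0.44) fell, and the apoptosome gene APAF1 rose from 1314, 1371 and 1302 to 1671, 1704 and 1735 (0.36). CFLAR (0.52) was the other gene called higher; the call of CFLAR was lost without replicate 2 or 3 of the control siRNA group or replicate 1 or 2 of the XPO1 siRNA group (limma adjusted p = 0.0544 to 0.249), with no filter on low values (0.0529) and with no intensity trend (0.0773).

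CDK inhibitors did not rise as a group. CDKN1A and CDKN1B (p27, from 2933 ± 71.1 to 3832 ± 73.5, log2 fold change 0.39) rose. CDKN2A read 44.2, 39.3 and 25.0 against 7.97, 11.6 and 20.2 (-1.43), the phosphatase gene CDKN3 1023, 1011 and 883 against 449, 400.4 and 427 (-1.19), and CDKN2D 447, 408 and 467 against 303, 284 and 269 (-0.63), so these 3 fell. CDKN1C (-0.10) and CDKN2C (-0.07) did not pass. Among G1 cyclins, CDKs, E2F and RB genes 14 of 22 fell, with E2F8 at 581, 563 and 579 against 282, 280.3 and 317 (-0.97) and E2F2 (-0.78), CDC25A (-0.59) and CDK2 (-0.53) next. CCND1, which encodes cyclin D1, the partner of CDK4 and CDK6, went against them, at 19514, 19879.6 and 20295 in control and 40046, 39263 and 40062 in XPO1 siRNA libraries (1.0, SE 0.0313, limma adjusted p = 2.13e-11). The other rises were TFDP2 (0.64), a dimerisation partner of E2F factors, and, named after their values were seen, CDK6 (0.34) and RBL2 (0.15).

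Genes of DNA replication fell nearly throughout. Of 26 genes of origin licensing and firing 24 were lower and 1, ORC4 (0.21), higher, with a median of -0.48. GINS2, a subunit of the replicative helicase, read 1219, 1325 and 1283 in control and 605, 656 and 626 in XPO1 siRNA libraries (-1.02). MCM6, of the same helicase, read 9812, 9481 and 9919.9 against 5218, 5449 and 5371 (-0.87), and the licensing factor gene CDT1 1194, 900.1 and 1020.3 against 626, 562 and 661 (-0.75). GINS1 (-0.83), MCM10 (-0.71) and CDC45 (-0.65) followed. At the fork and in nucleotide supply 31 of 33 genes fell and none rose (median -0.46). The dUTPase gene DUT went from 7084, 7202 and 6839.6 to 4103, 4086 and 4169 (-0.77), and thymidine kinase, TK1, from 4650.2, 4112 and 4423 to 2621, 2592 and 2638 (-0.75). The polymerase subunit genes POLA2 (-0.69) and POLE2 (-0.68), the clamp loader gene RFC2 (-0.66) and RPA3 (-0.66) fell by similar amounts. Called falls in both lists lay between -0.12 for RFC1 and -1.02 for GINS2.

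Replication genes are known for E2F sites near their start, and 4 promoters of genes that fell are shown with these sites in capitals. They were chosen after the values were seen, come from RefSeq (GRCh38.p14) and are read 5′ to 3′ on the gene's strand before its start. MCM6 lies at chr2:135876504-135876603 on the minus strand, GINS2 at chr16:85688955-85689014 on the minus strand, CDT1 at chr16:88803729-88803788 on the plus strand and POLA2 at chr11:65261882-65261941 on the plus strand.
MCM6: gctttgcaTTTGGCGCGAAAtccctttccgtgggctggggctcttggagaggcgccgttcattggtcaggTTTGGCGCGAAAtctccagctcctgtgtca
GINS2: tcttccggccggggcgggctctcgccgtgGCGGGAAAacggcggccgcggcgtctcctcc
CDT1: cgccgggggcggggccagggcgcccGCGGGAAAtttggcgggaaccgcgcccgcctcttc
POLA2: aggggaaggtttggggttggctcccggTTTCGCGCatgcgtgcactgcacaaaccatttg
Searched on both strands were TTTGGCGC, TTTCGCGC and TTTCCCGC. In windows from 250 bases before to 50 after the start, 11 of 22 licensing promoters (50%) and 11 of 29 fork promoters (37.9%) held one, against 2.8% of 27305 RefSeq promoters of the same length. The MCM6 promoter holds each site as an overlapping pair on opposite strands. A promoter sequence was matched for 84.6% of the tested licensing genes and 87.9% of the fork genes. Over all genes with a unique symbol 63.5% were matched, too few for a comparison of called with other genes.

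Mitotic genes fell by similar amounts. Of 32 genes of mitotic kinases, cyclins and the anaphase-promoting complex 30 were lower (median -0.52). The mitotic kinase genes PBK and AURKB read 3872, 4015 and 3793 against 2046, 2111 and 2117 (-0.90) and 3051, 2989 and 3118 against 1714, 1627 and 1666 (-0.87). Cyclin A, CCNA2, read 7752, 8016 and 7588 against 4391, 4428 and 4552 (-0.80), and MYBL2, a factor that activates late cell cycle genes, 7652, 6978 and 7852 against 4308, 3979.8 and 4204 (-0.85). The gene called higher was FZR1, an activator of the complex that is used in G1 (0.12); the call of FZR1 was lost without replicate 2 or 3 of the control siRNA group or replicate 1 or 2 or 3 of the XPO1 siRNA group (limma adjusted p = 0.0657 to 0.0984) and with the replicate number as a block (0.0586). At the centromere and kinetochore 30 of 33 fell (median -0.43). CENPH, a constitutive centromere protein, went from 2272, 2326 and 2297 to 1192, 1081 and 1177 (-1.0) and the centromeric histone gene CENPA from 1052, 1050.1 and 1060.3 to 604, 569 and 542 (-0.88). CENPM (-0.78), CDCA8 (-0.70), SPC24 (-0.68) and OIP5 (-0.68) fell. The large kinetochore proteins CENPE (0.33) and CENPF (0.21) were called higher, CENPE not with the intensity trend left out (limma adjusted p = 0.0665), and the call of CENPF was lost without replicate 1 of the control siRNA group or replicate 2 or 3 of the XPO1 siRNA group (limma adjusted p = 0.0533 to 0.0643) and with no intensity trend (0.128). All 32 tested kinesin, condensin and spindle genes fell (median -0.45), from NCAPH (-0.64), KIF2C (-0.63) and NCAPD3 (-0.59) to the smallest change at -0.12.

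Late cell cycle genes are known for a CHR element (TTTGAA or TTCGAA) near the start, often downstream of CCAAT boxes. Promoters of 4 genes that fell are shown with both kinds of motif in capitals, again chosen after the values were seen and taken from RefSeq (GRCh38.p14). All are on the plus strand: CCNB2, which encodes a cyclin B (-0.59), at chr15:59105021-59105145, the separase gene ESPL1 (-0.57) at chr12:53268219-53268298, the spindle motor gene KIF11 (-0.58) at chr10:92593050-92593129 and CENPA at chr2:26785916-26786055.
CCNB2: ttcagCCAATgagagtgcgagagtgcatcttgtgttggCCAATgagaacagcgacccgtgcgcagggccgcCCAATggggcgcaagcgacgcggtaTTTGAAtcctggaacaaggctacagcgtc
ESPL1: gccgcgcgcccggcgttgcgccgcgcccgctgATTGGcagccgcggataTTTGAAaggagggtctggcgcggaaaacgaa
KIF11: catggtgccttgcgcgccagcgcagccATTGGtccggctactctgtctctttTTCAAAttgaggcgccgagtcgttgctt
CENPA: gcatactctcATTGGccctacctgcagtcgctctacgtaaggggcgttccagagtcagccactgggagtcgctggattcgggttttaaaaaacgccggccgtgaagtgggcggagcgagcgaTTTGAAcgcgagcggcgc
On either strand, a CHR element was found in 14 of 26 promoters of the mitotic kinase and cyclin list (53.8%) and in 23 of 30 of the kinesin and spindle list (76.7%). Of all 27305 RefSeq promoters of this length 16.6% held one. A CCAAT box was in 53.8% and 60% of the same promoters, against 35.7% of all. In the licensing and fork lists 59.1% and 51.7% of promoters held a CCAAT box, and 9.1% and 6.9% a CHR element. Matched promoters covered 81.2% and 93.8% of the tested genes of the mitotic lists. For the centromere list they covered 78.8%, too few for its share to be used.

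Histone genes showed the largest fall of any list with 10 or more tested members. Replication-dependent histones package newly made DNA and are transcribed in S phase. They fell in 53 of 54 cases, none rose, and their median log2 fold change was -1.34. Together the 56 genes of this list in the table made up 2.26% to 2.45% of the deposited counts in control libraries and 0.98% to 1.03% in XPO1 siRNA libraries. HIST2H3D read 19466, 17122 and 15709 against 4949, 5196 and 5453 (-1.74), HIST1H2AB 7255, 6940.1 and 6849 against 2287, 2302 and 2322 (-1.61), and HIST1H3H 24742, 23298 and 23151 against 7987, 7662 and 7991 (-1.59). Many histone genes are near-identical copies whose reads may have been split, and several overlap a neighbour, so single members are uncertain. HIST1H4L alone did not pass (log2 fold change -0.46, limma adjusted p = 0.126), named after its value was seen. Replacement histones, which are made also outside S phase, fell in 8 of 11 cases (6 with equal totals). H2AFX, the variant phosphorylated at DNA breaks, read 4354, 3595 and 3124 against 1596, 1689.6 and 1791 (-1.11), H1F0 (-0.67) and H1FX (-0.67) fell by less, and the H3.3 gene H3F3A (-0.07) did not pass. H3F3B (0.08), the other H3.3 gene, was called higher; the call of H3F3B was lost without replicate 1 or 3 of the control siRNA group or replicate 1 or 2 or 3 of the XPO1 siRNA group (limma adjusted p = 0.0713 to 0.127), with the replicate number as a block (0.138) and with no intensity trend (0.116).

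Histone promoters are known for CCAAT boxes upstream of the start. Those of HIST1H2AD (chr6:26199334-26199448, minus strand, current symbol H2AC7) and HIST1H3H (chr6:27809951-27810010, plus strand, current symbol H3C10) are shown with CCAAT, on either strand, in capitals (RefSeq, GRCh38.p14).
HIST1H2AD: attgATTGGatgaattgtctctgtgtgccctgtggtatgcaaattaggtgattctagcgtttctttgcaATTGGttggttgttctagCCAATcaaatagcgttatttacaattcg
HIST1H3H: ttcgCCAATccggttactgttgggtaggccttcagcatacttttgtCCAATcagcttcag
Of 45 matched histone promoters 38 held a CCAAT box (84.4%), against 35.7% of 27305 RefSeq promoters. The matched promoters covered 83.3% of the tested histone genes.

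DNA repair genes were mostly lower. Of 30 genes of homologous recombination and the Fanconi pathway 25 fell (median -0.33) and 1, the recombination gene RAD51C (0.19), rose. With equal totals 20 fell. The exonuclease gene EXO1 read 6699, 6889 and 6838 against 4143, 4108 and 3917 (-0.75). RAD54L (-0.73), RAD54B (-0.68), FANCE (-0.67) and XRCC3 (-0.56) fell. In the damage checkpoint 14 of 22 fell (with equal totals 12), with H2AFX and the WEE1-like kinase gene PKMYT1 (-0.83) first and the checkpoint kinase gene CHEK2 (-0.51) after them. TP53BP1, a scaffold at DNA breaks, rose instead, from 5239, 5494 and 5788 to 8166, 8378 and 8241 (0.59). ATM, the kinase that signals such breaks, rose from 1819, 2085 and 2113 to 2655, 2743 and 2747 (0.44), and HUS1, named after its value was seen, had a log2 fold change of 0.15.

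**Figure D4:**
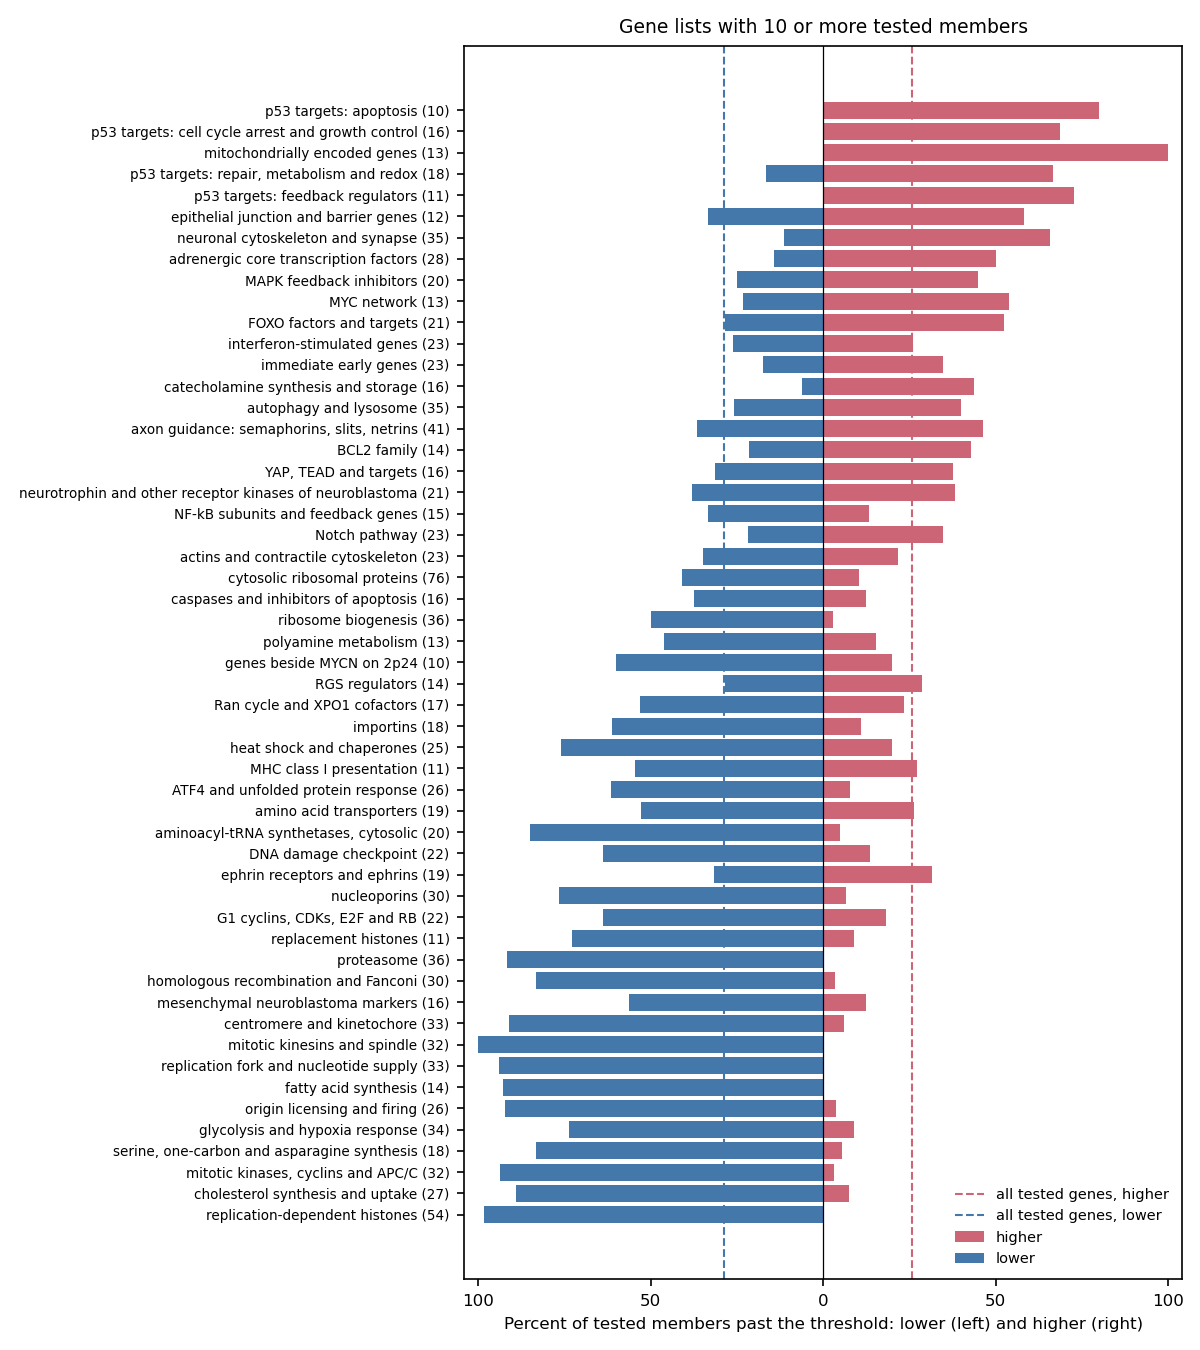
Percent of tested members called lower (bars to the left) and higher (bars to the right) for the 53 lists with 10 or more tested members (number tested in brackets), sorted by median log2 fold change, with dashed lines at the 28.6% lower and 25.9% higher of all tested genes. Histones, cholesterol synthesis and mitotic genes stand at the bottom, and p53 targets and mitochondrially encoded genes at the top.

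Partners and antagonists of MYC proteins moved both ways. MYC family proteins bind DNA with MAX, and the MXD proteins and MNT compete with them for it. Of 13 genes of the network 7 rose and 3 fell. Among the antagonists MXD1 read 225, 263 and 238 against 416, 424 and 426 (0.80), MXD4 1626, 1418 and 1527 against 2341, 2183 and 2268 (0.57), and MNT (0.31) rose too, while MXD3, an antagonist expressed in proliferating cells, fell from 1053, 899 and 903 to 560.2, 577 and 516 (-0.78). MYCL (-0.63) fell. Genes on the same stretch of chromosome 2 as MYCN were mostly lower: 6 of 10 fell and 2 rose. NBAS read 155574, 164522 and 158884 against 129480.0, 129578 and 131395 (-0.29), DDX1 286538, 295719 and 297386 against 285952, 284388 and 277281 (-0.05, not past the threshold) and FAM84A 60958, 57419 and 56626 against 75614, 72306 and 74649.5 (0.35). With equal totals, and without control siRNA replicate 2 or control siRNA replicate 3, 3 genes were called lower in place of 6.

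Protein synthesis and turnover divided by machinery. Ribosome biogenesis genes fell in 18 and rose in 1 of 36 cases with a median of -0.11, and with equal totals 14 fell and 5 rose (median -0.02). NPM3, a nucleolar chaperone, stood out from them with 1891, 1877 and 1941 in control and 837, 816 and 864 in XPO1 siRNA libraries (-1.18). BOP1 (-0.50), NHP2 (-0.41), FBL (-0.35) and NPM1 (-0.33) fell by less, and POLR1A, the largest subunit of RNA polymerase I, had a log2 fold change of 0.15; the call of POLR1A was lost without replicate 2 of the control siRNA group or replicate 2 of the XPO1 siRNA group (limma adjusted p = 0.0679 to 0.0689) and with no intensity trend (0.106). Cytosolic ribosomal proteins were lower in 31 and higher in 8 of 76 cases (median -0.07), which turned to 15 lower and 23 higher (median 0.02) with libraries rescaled to equal totals. Without replicate 1 of either group, 5 were called higher. Within that list RPL22L1, a paralog of RPL22, went from 4738, 5558 and 4915 to 2318, 2123 and 2179.9 (-1.20) and RPS19 from 24977, 24821 and 25532 to 33555, 32759 and 33498 (0.41), and both kept their direction. Aminoacyl-tRNA synthetases, which load tRNAs with amino acids, fell in 17 of 20 cases (median -0.24), FARSB (-0.63), AARS (-0.61) and VARS (-0.59) most, and HARS (0.28) rose. With equal totals 13 of these synthetases fell and 2 rose. Proteasome genes fell in 33 of 36 cases and none rose (median -0.31). PSMB3, of the catalytic core, read 4459.7, 4472 and 4400.2 against 2998, 3004 and 2937 (-0.58), and PSMD11, of the regulatory cap, 4007, 3774 and 4058 against 2849, 2799 and 2648 (-0.51).

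Lipid synthesis genes were lower as a group. The mevalonate pathway turns acetyl-CoA into cholesterol under the control of SREBP2, and SREBP1 drives fatty acid synthesis. Of 27 cholesterol genes 24 fell (median -0.57). FDFT1, which makes squalene, read 7899, 7901 and 7759 against 3924, 3746 and 3568 (-1.07, SE 0.0382), and ACAT2, which makes acetoacetyl-CoA, 7840.0, 8181 and 7847 against 3914, 3873 and 3819.8 (-1.04). The groups lay far apart for both genes. The SREBP regulator gene INSIG1 (-0.91) and the enzyme genes DHCR7 (-0.82) and IDI1 (-0.82) fell. STARD4, which carries cholesterol between membranes, rose from 5959, 6587 and 6212 to 8292, 7936 and 8044 (0.37), and TM7SF2, a sterol reductase gene, had a log2 fold change of 0.16; the call of TM7SF2 was lost without replicate 2 of the control siRNA group or replicate 1 of the XPO1 siRNA group (limma adjusted p = 0.0501 to 0.0907). Fatty acid synthesis genes fell in 13 of 14 cases (median -0.48). The NADPH-producing malic enzyme gene ME1 read 326, 345 and 329.6 against 130.1, 178 and 148 (-1.14), the desaturase gene SCD 33893, 33990.1 and 33923 against 18972, 19293 and 19032 (-0.83), and the synthase gene FASN 40368, 32537 and 36906 against 23762, 24742 and 25231 (-0.57).

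Amino acid metabolism showed the same direction. In serine, one-carbon and asparagine synthesis 15 of 18 genes fell (median -0.52). PHGDH, the first enzyme of serine synthesis, read 8673, 8403 and 8806 in control and 4393, 4473 and 4614 in XPO1 siRNA libraries (-0.94). The next enzymes of that pathway, PSAT1 (-0.86) and PSPH (-0.73), fell with it, as did the folate enzyme gene MTHFD1L (-0.86) and the proline synthesis gene PYCR1 (-0.65). Asparagine synthetase, ASNS, went from 3924, 4233 and 4071 to 2393, 2373 and 2414 (-0.77). Its promoter (chr7:97872449-97872498, minus strand, RefSeq GRCh38.p14) is shown because it carries the amino acid response element bound by ATF4, here TGATGAAA in capitals.
ASNS: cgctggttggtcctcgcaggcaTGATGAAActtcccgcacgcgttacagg
TGATGCAA or TGATGAAA, on either strand, is in 2.0% of RefSeq promoters of the searched length. Among amino acid transporters 10 of 19 fell and 5 rose. After SLC7A11 the falls were led by the cationic transporter gene SLC7A2 (-0.96) and SLC43A1 (-0.74), and the glutamate transporter genes SLC1A1 (-0.72) and SLC1A3 (-0.63). The rises ran from SLC43A2 and the glutamine transporter gene SLC38A2 (0.50) to SLC3A2 (0.35), SLC38A1 (0.30) and SLC38A7 (0.25), the last 3 named after their values were seen.

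Stress responses of the endoplasmic reticulum and the cytosol were lower in most genes. Genes of ATF4 and the unfolded protein response fell in 16 of 26 cases and rose in 2 (13 and 4 with equal totals). DDIT4, an inhibitor of mTORC1, read 5081, 7347 and 5716 against 2995, 2624 and 2647 (-1.12), the chaperone partner gene SDF2L1 677, 671 and 654 against 297, 306 and 287 (-1.17), and the glutathione-degrading enzyme gene CHAC1 222, 206 and 256 against 109, 114 and 102 (-1.06). CEBPB (-0.85) and ATF3 (-0.67) fell. PPP1R15A, which encodes the phosphatase subunit GADD34, rose from 444, 435 and 457 to 956, 887 and 886 (1.03), and SESN2, a second gene shared with the p53 lists, by 0.50. Heat shock genes and chaperones fell in 19 of 25 cases and rose in 5 (14 and 5 with equal totals). The falls were small (median of the list -0.20), among them the small heat shock protein gene HSPB1 (-0.57) and the chaperonin genes CCT4 (-0.44) and CCT6A (-0.37). HSPA4L, an HSP110 family member, changed most, at 2323, 2426 and 2463 in control and 8453, 8382 and 8388 in XPO1 siRNA libraries (1.81, SE 0.0348). The others called higher were HSPA1A (0.49), HSPA1B (0.26), DNAJA1 (0.20) and the heat shock factor gene HSF1 (0.18), the last 3 named after their values were seen. HSPA1A and HSPA1B are near-identical copies whose reads may be split uncertainly, and the call of HSPA1A was lost without replicate 2 of the control siRNA group or replicate 1 or 2 of the XPO1 siRNA group (limma adjusted p = 0.0552 to 0.0714).

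Genes of glycolysis and the hypoxia response were lower in 25 of 34 cases (median -0.49). The aldolase gene ALDOC read 1965, 2815 and 2318 against 928, 759 and 891 (-1.45). EGLN3, an oxygen sensor that HIF induces, read 283, 353 and 248 against 135, 127 and 92.9 (-1.31), and LDHA, which makes lactate, 50586, 58431 and 52958 against 29366, 27063 and 27616 (-0.94). The mitophagy receptor gene BNIP3 (-1.11), PFKFB4 (-0.99) and PDK1 (-0.91) fell as well. Called higher were the stress gene NDRG1 (0.70), the muscle-type phosphofructokinase gene PFKM (0.30), named after its value was seen, and ANKRD37 (0.63); the call of ANKRD37 was lost without replicate 1 or 3 of the control siRNA group or replicate 2 or 3 of the XPO1 siRNA group (limma adjusted p = 0.0757 to 0.173) and with no intensity trend (0.158). Of 13 polyamine genes 2 rose and 6 fell (4 and 6 with equal totals). ODC1, the rate-limiting enzyme of polyamine synthesis, went from 17320.4, 17832 and 17526 to 35833, 34954 and 35352 (1.01, SE 0.0306) while the spermidine synthase gene SRM (-0.62) and AMD1 (-0.33) fell.

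All 13 genes encoded on mitochondrial DNA rose, with a median of 0.76 and in each the XPO1 siRNA libraries all lay above the control libraries, as they did in 29.2% of all tested genes. MT-ND5 read 1052, 1013 and 903 against 1957, 1968 and 1854 (0.96), and MT-ND2 669.9, 835 and 650.0 against 1420.4, 1318 and 1410.4 (0.95), both subunits of respiratory complex I. The smallest rise in the list was 0.38. Autophagy and lysosome genes rose in 14 and fell in 9 of 35 cases (17 and 5 with equal totals). The protease gene CTSL went from 1911, 2006 and 1880.2 to 4244, 4155 and 4124 (1.11), and the autophagy initiation genes ATG14 (0.66) and ULK1 (0.59) rose. The transcription factors of lysosomal genes MITF (-0.74) and TFEB (-0.47) fell.

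Markers of adrenergic neuroblastoma were present in all libraries and tended to be higher after XPO1 siRNA. HAND2 (from 15755 ± 65.8 to 18925 ± 538, 0.26), PHOX2A (from 3198 ± 108 to 3874 ± 176, 0.28) and GATA3 (from 2957 ± 186 to 4168 ± 74.4, 0.50) rose. ISL1, a LIM homeobox factor of sympathetic neurons, rose most, from 1792, 1731 and 1812 to 3787, 3963 and 3951 (1.13, SE 0.0383), and the T-box factor gene TBX2 went from 3522, 3252 and 3295 to 6726, 6257 and 6635 (0.96). In all 14 of 28 core factors rose and 4 fell (median 0.27), with INSM2 (0.94), SIX3 (0.69) and EBF3 (0.61) among the rises. The falls were LMO3 (-0.87), NR2F1 (-0.56) and, named after their values were seen, HEY1 (-0.46) and MEIS2 (-0.36); the call of NR2F1 was lost without replicate 1 or 3 of the control siRNA group or replicate 2 of the XPO1 siRNA group (limma adjusted p = 0.0634 to 0.0759).

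Catecholamine genes rose in 7 of 16 cases. The secretory granule gene CHGA stood at 4805, 4689 and 4848 against 9475, 8745 and 8885 (0.92), the noradrenaline transporter gene SLC6A2 at 158, 153 and 149.9 against 275, 274 and 283 (0.85), and GCH1, which makes the cofactor of tyrosine hydroxylase, at 1031, 1060.4 and 969 against 1922, 1752 and 1731 (0.82). The granule genes VGF (0.68) and SCG2 (0.49) rose. DBH, which converts dopamine to noradrenaline, did not pass (3465 ± 111 and 3351 ± 154, -0.05). Tyrosine hydroxylase itself was close to the floor, with TH at 3.16, 7.43 and 5.64 against 9.74, 4.37 and 2.38, and was not tested. The one fall was that of the prohormone convertase gene PCSK2 (-0.64); the call of PCSK2 was lost without replicate 1 of the control siRNA group or replicate 2 of the XPO1 siRNA group (limma adjusted p = 0.0507 to 0.0699) and with no intensity trend (0.0781).

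Genes of the neuronal cytoskeleton and synapse rose in 23 and fell in 4 of 35 cases (median 0.29; with equal totals 27 rose and 1 fell). DCX, a microtubule protein of migrating neurons, read 6284, 6342 and 6410.0 against 10770.1, 11041 and 10384 (0.76), and the synaptic vesicle gene VAMP2 272, 230.3 and 242 against 567, 616 and 548 (1.22). The RNA-binding protein gene ELAVL3 went from 3048, 2766 and 3066 to 4603, 4524 and 4539.7 (0.62), and STMN2 (0.89), STX1A (0.48) and MAP1B (0.48) rose. TUBB2A (-0.35) was the largest fall.

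Guidance receptors and their ligands changed in both directions. Of 41 genes of semaphorins, slits, netrins and their receptors 19 rose and 15 fell. The plexin receptor gene PLXNA2 went from 1857, 1593 and 1904 to 4974, 5423 and 5303 (1.55, SE 0.0593), PLXNA1 from 4631, 4165 and 4887 to 9348, 9355 and 9297 (1.04) and the semaphorin gene SEMA6C from 293, 289.8 and 291 to 758, 715 and 771 (1.36). Other semaphorins fell: SEMA3D from 85.3, 88.1 and 83.0 to 29.2, 25.5 and 31.0 (-1.55), SEMA5A from 1574, 1709 and 1718 to 719.7, 721 and 846 (-1.13) and SEMA3C from 41.1, 42.5 and 45.9 to 20.4, 21.1 and 21.4 (-1.01). In the ephrin system, where membrane-bound ephrins signal to Eph receptors on the next cell, 6 of 19 genes rose and 6 fell. These shares, 31.6% each, were near the 25.9% higher and 28.6% lower of all tested genes. EPHA5 fell most among the receptors, and the ephrin-B ligand gene EFNB2 went from 223, 192 and 226 to 102, 96.8 and 95.2 (-1.11). EPHA2 moved the other way, from 526, 517 and 552 to 1159.7, 1176 and 1132 (1.12), with EPHA10 (0.99), the ligand gene EFNA1 (0.89) and EPHB6 (0.43). The gene RP11-408P14.1 overlaps EPHA5 on the other strand, with values many times those of EPHA5 and a log2 fold change of 0.09.

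Receptor kinases of neuroblastoma were divided evenly, 8 higher and 8 lower of 21, with a median of -0.01 that became 0.08 with equal totals. FGFR4 went from 661, 617 and 633 to 274, 237 and 264 (-1.30) and EGFR from 916, 863 and 898 to 419.6, 507 and 493 (-0.92). The stem cell factor gene KITLG rose from 274, 243 and 251 to 553, 510.3 and 492 (1.02), and ERBB2 (1.18) and ERBB4 (0.71) rose from low values. Notch genes rose in 8 and fell in 5 of 23 cases (median -0.02, 0.07 with equal totals). The receptor gene NOTCH1 read 2556, 2215 and 2535 against 4254, 4565 and 4715 (0.89) and the ligand gene DLL3 3310.0, 2921 and 2921 against 5533, 5279 and 5621 (0.85), while NRARP (-0.80), a feedback inhibitor that Notch induces, fell.

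**Figure D5:**
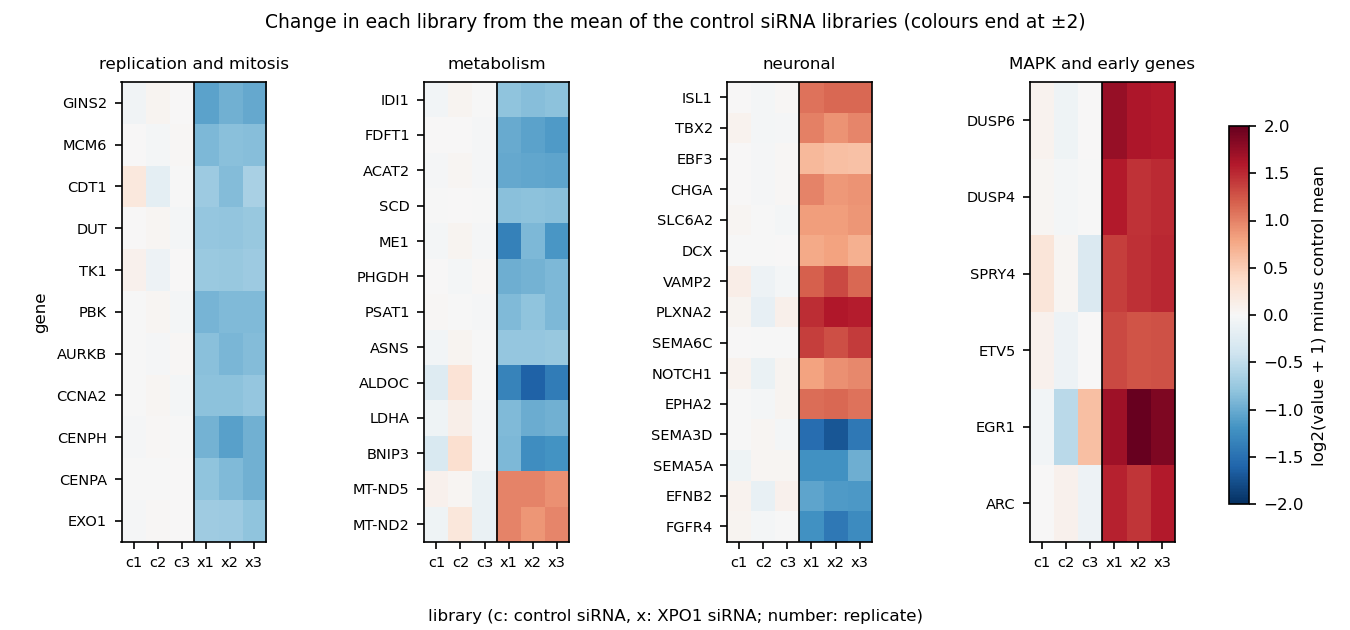
Log2(value + 1) of 45 genes in each library (c1 to c3 control siRNA, x1 to x3 XPO1 siRNA) minus the mean of the control libraries, with colours ending at 2 in either direction. The 3 XPO1 siRNA libraries share their colour in every row, blue for replication, mitosis and most metabolic genes and red for mitochondrially encoded genes, most neuronal genes shown and the MAPK and early genes. EGR1 varied most among the control libraries shown.

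Feedback genes of the ERK MAP kinase pathway rose in 9 and fell in 5 of 20 cases (13 and 4 with equal totals). The ERK phosphatase genes DUSP6 and DUSP4 read 181, 161 and 173 against 575, 529 and 518 (1.65) and 1349, 1283 and 1311 against 3944, 3563 and 3689.6 (1.5). The inhibitor gene SPRY4 read 73.7, 63.7 and 50.8 against 163, 172 and 179 (1.45), and the ETS factor genes ETV5 (1.28) and ETV4 (1.02) rose. DUSP9 (-0.83) and SPRY1 (-0.53) fell. Immediate early genes, which growth factors and depolarisation induce within minutes, rose in 8 and fell in 4 of 23 cases. EGR1 went from 21.1, 14.9 and 33.8 to 73.5, 90.3 and 83.3 (1.85, SE 0.259), ARC from 232, 244 and 213 to 668, 617 and 688 (1.52) and FOSB from 13.7, 14.9 and 17.7 to 49.6, 40.0 and 51.2 (1.54), with low control values for EGR1 and FOSB. KLF6 (-0.73) and ATF3 (-0.67) were the largest falls. Regulators of G protein signalling rose in 4 and fell in 4 of 14 cases (28.6% each), near the 25.9% and 28.6% of all tested genes. RGS4 had values of 2539, 5771 and 3347 against 2566, 1741 and 1944 (-0.83). The groups overlapped, and the call was lost with no intensity trend (limma adjusted p = 0.0885).

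FOXO factors are nuclear when AKT is inactive and are carried out by XPO1. Of 21 FOXO genes and targets 11 rose and 6 fell (median 0.22). The ubiquitin ligase gene FBXO32 read 36.8, 41.4 and 33.0 against 164, 161 and 155 (2.08) and the thioredoxin inhibitor gene TXNIP 2102, 2579 and 2319 against 5521, 5349.7 and 5141 (1.20). SESN1 and GADD45A (0.80), which are also p53 targets, were in the list as well, and the FOXO target BNIP3 fell. Whether FOXO factors had a part in these changes was not tested. For NF-kB, whose inhibitor also passes through XPO1, 2 of 15 genes rose and 5 fell, with a median of -0.02 that became 0.08 with equal totals (2 higher, 3 lower). The feedback gene NFKBIA went from 899 ± 45.6 to 1094 ± 43.8 (0.28), and TNFAIP2 (-0.68), SOD2 (-0.46) and the subunit gene NFKB1 (-0.32) fell. Interferon-stimulated genes were balanced at 6 higher and 6 lower of 23 (26.1% each), near the 25.9% and 28.6% of all tested genes. IFIT1 read 34.7, 49.9 and 43.5 against 15.9, 17.5 and 27.4 (-1.06) and IFI44 (-0.81) fell with it and IFI44L, while IRF9, the DNA-binding part of the interferon-activated factor, went from 87.8, 93.2 and 66.8 to 241, 181 and 141 (1.15) and HERC5 (1.11) rose. In antigen presentation 6 of 11 genes fell and 3 rose (4 and 3 with equal totals). B2M, the light chain of MHC class I, went from 5725 ± 342 to 4659.7 ± 50.9 (-0.30), and the peptide editor gene TAPBPL (0.86) rose. Of 16 genes of YAP, TEAD and their targets 6 rose (37.5%) and 5 fell (31.25%). YAP1, a co-activator of the Hippo pathway, fell from 775, 776 and 874 to 425, 449.9 and 401 (-0.92) with its partner gene TEAD4 (-0.84).

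ACTA2, the smooth muscle actin gene, stood at 46.0, 45.0 and 38.9 in control and 579, 501 and 559.9 in XPO1 siRNA libraries (3.63, SE 0.111), and ACTG1, a cytoplasmic actin gene, at 159506, 149970.0 and 160406 against 226485, 222292 and 220927 (0.51). Other smooth muscle markers, named after their values were seen, differ from ACTA2: MYH11, CNN1 and LMOD1 did not pass (log2 fold changes 0.22, -0.37 and -0.40), and TAGLN, at 7.82 ± 5.40 and 10.3 ± 4.28, was not tested. In the whole list 5 of 23 genes rose and 8 fell (median -0.04; with equal totals 6 and 6, median 0.05), shares near the 25.9% and 28.6% of all tested genes. After ACTA2 the largest rises were TPM2 (0.87) and TAGLN3 (0.77), and the largest falls TAGLN2 (-0.97) and MYLK (-0.54). Epithelial junction and barrier genes rose in 7 and fell in 4 of 12 tested cases. EPPK1 read 7.37, 23.4 and 23.4 against 108, 116 and 98.9 (2.67), the lipid transporter gene ABCA12 0, 2.12 and 2.42 against 37.2, 21.1 and 23.8, and the claudin gene CLDN4 29.5, 40.3 and 33.0 against 69.9, 78.6 and 88.1 (1.18). The junction genes TJP1 (-0.30) and PVRL3 (-0.38) fell. In this list, the call of LAMB3 was lost without replicate 3 of the XPO1 siRNA group (limma adjusted p = 0.0549), the call of OCLN was lost without replicate 1 of the control siRNA group or replicate 2 of the XPO1 siRNA group (limma adjusted p = 0.0649 to 0.11) and the call of PVRL1 was lost without replicate 1 or 3 of the control siRNA group or replicate 2 or 3 of the XPO1 siRNA group (limma adjusted p = 0.0936 to 0.112), with libraries rescaled to equal totals (0.193) and with no intensity trend (0.0886).

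Markers of other cell types differed by list. Summed over 19 mesenchymal neuroblastoma markers, values ran from 42020 to 42800 in control libraries and from 31770 to 32080 in XPO1 siRNA libraries. VIM made up a large part of these sums. Of 16 tested 9 fell, among them VIM (from 16598 ± 357 to 11864 ± 108), FN1 (from 2862 ± 178 to 1942 ± 83.3) and ANXA2 (-0.59). Called higher were 2, COL5A1 (0.13) and S100A6 (0.12). Both calls were lost with no intensity trend (limma adjusted p = 0.0661 and 0.101) and without single libraries. With equal totals 8 fell and 3 rose. Schwann and glial markers summed to between 10030 and 10770 and between 10310 and 10730, and 3 of 9 tested were called higher and 3 lower (4 and 2 with equal totals). The glial factor SOX10 stood at 6.73 ± 1.58 and 11.9 ± 4.33, and the myelin gene MBP went from 4.77 ± 1.59 to 15.3 ± 1.92 (log2 fold change 1.52). The 6 leukocyte and endothelial markers in the table summed to between 67.4 and 79.8 in control and between 121 and 129 in XPO1 siRNA libraries. CDH5, an endothelial cadherin gene, made up most of that rise (from 34.5 ± 2.06 to 79.0 ± 7.97, log2 fold change 1.17) while the monocyte marker CD14 stood at 3.01 ± 1.32 and 9.78 ± 1.54. KDR, an endothelial receptor gene, went from 12.8 ± 5.77 to 7.62 ± 0.941 (log2 fold change -0.61, limma adjusted p = 0.227) and did not pass. Whether other cells had a part in any result was not tested. In bulk RNA, fewer cells of a type or stage and less RNA per cell cannot be told apart, which touches the cell cycle lists above.

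The 4 nuclear long non-coding RNAs listed here rose. Of all tested long non-coding RNA genes 30.4% were called higher and 11.2% lower, against 25.9% and 28.6% of all tested genes. MALAT1 went from 39237, 46183 and 39280.1 to 106825, 125868 and 131405 (1.54, SE 0.0732) and NEAT1, the scaffold of paraspeckles, from 929.6, 1213 and 794 to 3539, 3674 and 3603 (1.90). The imprinted RNA genes MEG3 (1.28) and KCNQ1OT1 (1.19) rose as well. The RN7SL genes, which make the RNA of the signal recognition particle, held 12.6% to 13.1% of deposited counts in control and 10.8% to 12.4% in XPO1 siRNA libraries, and mitochondrial genes 0.18% and 0.28% to 0.29%. RMRP and RPPH1, the RNA parts of the RNase MRP and RNase P enzymes, fell (log2 fold changes -0.19 and -0.27). RN7SL1 had a log2 fold change of -0.24; the call of RN7SL1 was lost without replicate 3 of the control siRNA group or replicate 3 of the XPO1 siRNA group (limma adjusted p = 0.0545 to 0.0978), with libraries rescaled to equal totals (0.0523) and with the replicate number as a block (0.156). RN7SK did not pass (0.01). Whether these abundant RNAs had a part in the other results was not tested.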

How the data were processed

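Total RNA of IMR5 cells was sequenced after strand-specific library preparation, per the labels' protocols. The authors aligned reads with STAR 2.7.3a to hg19 and used Partek and DESeq2, per the submitters' processing notes. The deposited values were taken as a signal, normalised counts per gene, while the annotation, the counting options and strand handling were not given in the sources used here. Of deposited values from 0.3 to 60, 62.0% to 65.3% per library were whole multiples of a per-library step within 0.02 of a read (chance gives 4%), so whole reads were not recovered and no count model was run. The steps gave the estimated depths of 33.5 to 55.8 M reads.

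Genes of mean 10 or more were tested with limma 3.58.1 (R 4.3.3) on log2(value + 1) with an intensity trend, over the 6 libraries and with no covariate, Benjamini-Hochberg adjusted over all 17616 genes at 0.05. The script was tested on simulated data. The members and gene lists were chosen with earlier results of these data known. Named genes were XPO1, CDKN1A, EPHA5 and MYCN, the 15 largest rises and falls, in each of 58 lists up to 6 called members with the largest changes at a mean of at least 20 and up to 2 called against the majority, and any member of lists of up to 12 and of the marker and RNA class lists. Genes named outside this rule are defining markers of the lineage, genes that overlap a named gene, or are said to be named after their values were seen. Some genes that the rule names are not reported here. Alternatives were other pseudocounts, low-value filters and scalings, a replicate block, no intensity trend, a minimum change and leaving out each library. A further 3 per-sample columns matched no sample and were not used. Promoters came from RefSeq (GRCh38.p14) by symbol or synonym, and 11191 of 17612 tested genes matched. File coordinates are hg19. Plots were drawn with matplotlib 3.10.9.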

Additional observations from a re-analysis of the deposited data

How the results depend on the processing

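XPO1 stayed lower under every alternative run, from -2.12 to -2.10 with single libraries left out and at -2.02 with libraries rescaled to equal totals. With single libraries left out, 3962 to 4345 genes were called higher and 4466 to 4856 lower. Rescaling to equal totals gave 6057 higher and 3647 lower, shifted the median of all tested genes by 0.0893 and turned the median of 5 lists from just under to just over zero: cytosolic ribosomal proteins (0.02), receptor kinases (0.08), Notch (0.07), NF-kB (0.08) and actins (0.05). Notch, NF-kB and receptor kinase medians also changed sign without single libraries, and the Notch median with a minimum mean of 50 (0.04). The median of the 2 tested leukocyte and endothelial markers went from 0.28 to -0.14 without replicate 1 of the XPO1 siRNA group. That of the RNA class list, close to zero (0.005), changed sign without single libraries. Asking for a change of more than 1 on the log2 scale (limma treat) left 101 genes higher and 56 lower, since the null then covers all smaller changes. Leaving out the intensity trend gave 4102 higher and 4556 lower. With the replicate number as a block, 4439 genes were higher and 4882 lower. Same-numbered libraries did not deviate together (correlations of deviations -0.0311, -0.02 and -0.104, and 0 of 3 numbers correlated best with their own). The values thus showed no pairing by number, which does not settle whether the libraries were prepared in pairs. Over 407 named genes and 14 alternatives, 5509 values kept their side of the threshold, 153 lost the call and 10 gained it. No gene called in the main fit changed direction. Some genes that did not pass changed sign between settings, such as CDKN2C (-0.10 to 0.02). Counts of list members of 5 or fewer moved by a gene or more in several lists. Genes under a mean of 10 in these 6 libraries, 1994 in all, entered only the run with no filter on low values, which tested 19610 genes and called 4716 higher and 5017 lower.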

Other observations

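Zinc finger genes, chosen for this description after their values were seen, were more often higher than other genes. They encode mostly KRAB-type repressors of transcription, many of them in clusters on chromosome 19. Of 231 tested genes on chromosome 19 with a symbol starting with ZNF or ZFP, 141 were called higher (61.0%) and 8 lower (3.5%), with a median log2 fold change of 0.258. Such genes elsewhere in the genome were higher in 123 of 256 cases (48.0%) and lower in 26 (10.2%), with a median of 0.166. The other 892 tested genes of chromosome 19 were higher in 26.3% and lower in 27.5% of cases, close to all tested genes (25.9% and 28.6%). No test of this difference was run, and many of these genes share sequence with paralogs, so reads may have been split between them.

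Gene classes, taken from RefSeq by symbol, differed in the balance of calls, also seen after the values were known. Long non-coding RNA genes were higher in 154 of 507 cases (30.4%) and lower in 57 (11.2%), with a median of 0.228. Protein-coding genes were higher in 27.7% and lower in 34.6% of 13108 cases, with a median of -0.024. Transcribed pseudogenes were higher in 95 of 280 cases and lower in 22. Pseudogenes not marked as transcribed went the other way, with 88 of 979 higher and 177 lower. Small nucleolar RNA genes were higher in 15 of 70 cases and lower in 3. Under equal totals all medians shift upwards together, and the classes differ in abundance and in reads shared with paralogs; the part of either in these counts was not tested.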
